A study of Mus musculus with 38 samples.

Results

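The expression of 5 transcription factors of the inner ear hair cell, Atoh1, Pou4f3, Gfi1, Lhx3 and Barhl1, was followed in cochlear explants of neonatal mice. They were read by every array probe that the platform annotation assigns to them, which gave 1 probe for each gene, 5 of 25697 probes and 5 of 16593 genes with a symbol. The explants came from C57BL/6 mice of 3 to 5 days, and were exposed to 0.4 mM kainate for 2 h or left untreated as controls. Kainate is a glutamate receptor agonist that damages the endings of auditory nerve fibres on hair cells. After 5, 24 or 72 h in culture, each explant was cut into the spiral ganglion (SG), which holds the cell bodies of the auditory neurons, and the remaining organ of Corti (OC), which holds the hair cells and supporting cells. The labels name no transgene or deletion for any group, and the fractions were separated by dissection and not by a sort for hair cells.

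Of the 12 kainate and 12 control explants, 4 for each time and treatment, only fractions whose RNA had an integrity number of 7 or more were hybridised. In all, 38 bead arrays were measured, 19 of SG and 19 of OC. The 5 h groups held 4 SG arrays from kainate explants, 4 SG arrays from controls, 4 OC arrays from kainate explants and 3 OC arrays from controls. For 24 h these numbers were 3, 2, 2 and 4, and for 72 h each group had 3. The values are log2 signals, quantile normalized between arrays, and 1 unit is a doubling of the signal. A probe was called detected on an array at a detection p under 0.01, which compares it with control beads. Between 10043 and 12171 probes were detected per array, and the lowest signal of a detected probe lay between 7.95 and 8.36 across arrays. The number of arrays sets the precision, and signals near that floor are compressed by the background, which was not subtracted.

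Hair cells arise from precursors that they share with the supporting cells around them, and transcription factors that act in sequence set their fate and keep them alive. Atoh1 is a basic helix-loop-helix activator that binds E-boxes and is required for hair cells to form. Pou4f3, a POU homeodomain factor, is required for hair cells to mature and survive, and Gfi1, a zinc finger repressor, is required for their survival. Lhx3 is a LIM homeodomain factor of hair cells, and Barhl1, a BarH-like homeodomain factor, is needed for their long-term maintenance.

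RefSeq promoter sequences (build GRCm38.p6) were found for 4 of the 5 genes, and Pou4f3 was not among them. The 250 bases before the annotated start were read, in 7 windows, since Gfi1, Lhx3 and Barhl1 have 2 starts each. A window is shown for each of the 3 genes with a promoter sequence that were detected on the arrays, the outermost that holds an E-box, because these genes shared the same step between the fractions. Capitals mark the E-box CANNTG, whose letters read as the same pattern on both strands, and each sequence runs 5′ to 3′ toward the start.
Gfi1 (chr5:107725806-107726055, strand -): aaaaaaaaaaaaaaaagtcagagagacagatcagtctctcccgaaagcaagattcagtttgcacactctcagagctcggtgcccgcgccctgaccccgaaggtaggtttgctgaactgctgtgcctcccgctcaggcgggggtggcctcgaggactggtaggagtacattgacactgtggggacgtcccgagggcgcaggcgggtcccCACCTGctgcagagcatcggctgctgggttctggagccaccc
Lhx3 (chr2:26206576-26206825, strand -): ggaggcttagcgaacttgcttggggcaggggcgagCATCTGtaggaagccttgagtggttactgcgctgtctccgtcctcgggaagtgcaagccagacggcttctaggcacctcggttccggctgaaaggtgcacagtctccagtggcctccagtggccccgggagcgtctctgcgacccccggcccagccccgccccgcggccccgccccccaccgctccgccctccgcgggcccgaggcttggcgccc
Barhl1 (chr2:28916669-28916918, strand -): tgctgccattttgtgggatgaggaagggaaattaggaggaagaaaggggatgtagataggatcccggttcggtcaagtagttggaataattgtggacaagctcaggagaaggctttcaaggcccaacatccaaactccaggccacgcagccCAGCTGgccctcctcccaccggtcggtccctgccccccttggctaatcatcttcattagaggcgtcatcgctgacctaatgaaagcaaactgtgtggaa
An E-box was present in 5 of the 7 windows, against 66.2% of all 32851 promoter windows of the same length, so it is a common sequence and not particular to these genes. The Gfi1 window has CACCTG 42 bases before the start, and the Lhx3 window has CATCTG 215 bases before it. The form CAGCTG was found in 2 windows, both of Barhl1, and in 13.0% of all windows. The core TAAT, which many homeodomain factors bind, was found on either strand in 3 of the 7 windows, 1 of Lhx3 and 2 of Barhl1, and in 54.9% of all windows. The Atoh1 window has neither an E-box nor TAAT. A match describes the letters in the window and is not evidence of binding.

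The hair cell factors were concentrated in the OC fraction, with the exception of Atoh1. Gfi1, Pou4f3, Lhx3 and Barhl1 were each detected on 19 of 19 OC arrays, as were 36.3% of all probes. On the SG arrays Gfi1 was detected on 12 of 19, Lhx3 and Barhl1 on 9 of 19, and Pou4f3 on 4 of 19. Atoh1 was detected on none of the 38 arrays, a result it shared with 43.8% of the probes. Its signal lay between 7.10 and 7.67 on OC arrays (median 7.23) and between 7.04 and 7.51 on SG arrays (median 7.24), all below the lowest detection floor. Atoh1 differed between SG and OC by -0.02 in control explants (SE 0.07, limma adjusted p = 0.916), and since the probe was not well above background in either fraction, neither its presence nor its absence can be read from these arrays.

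**Figure D1:**
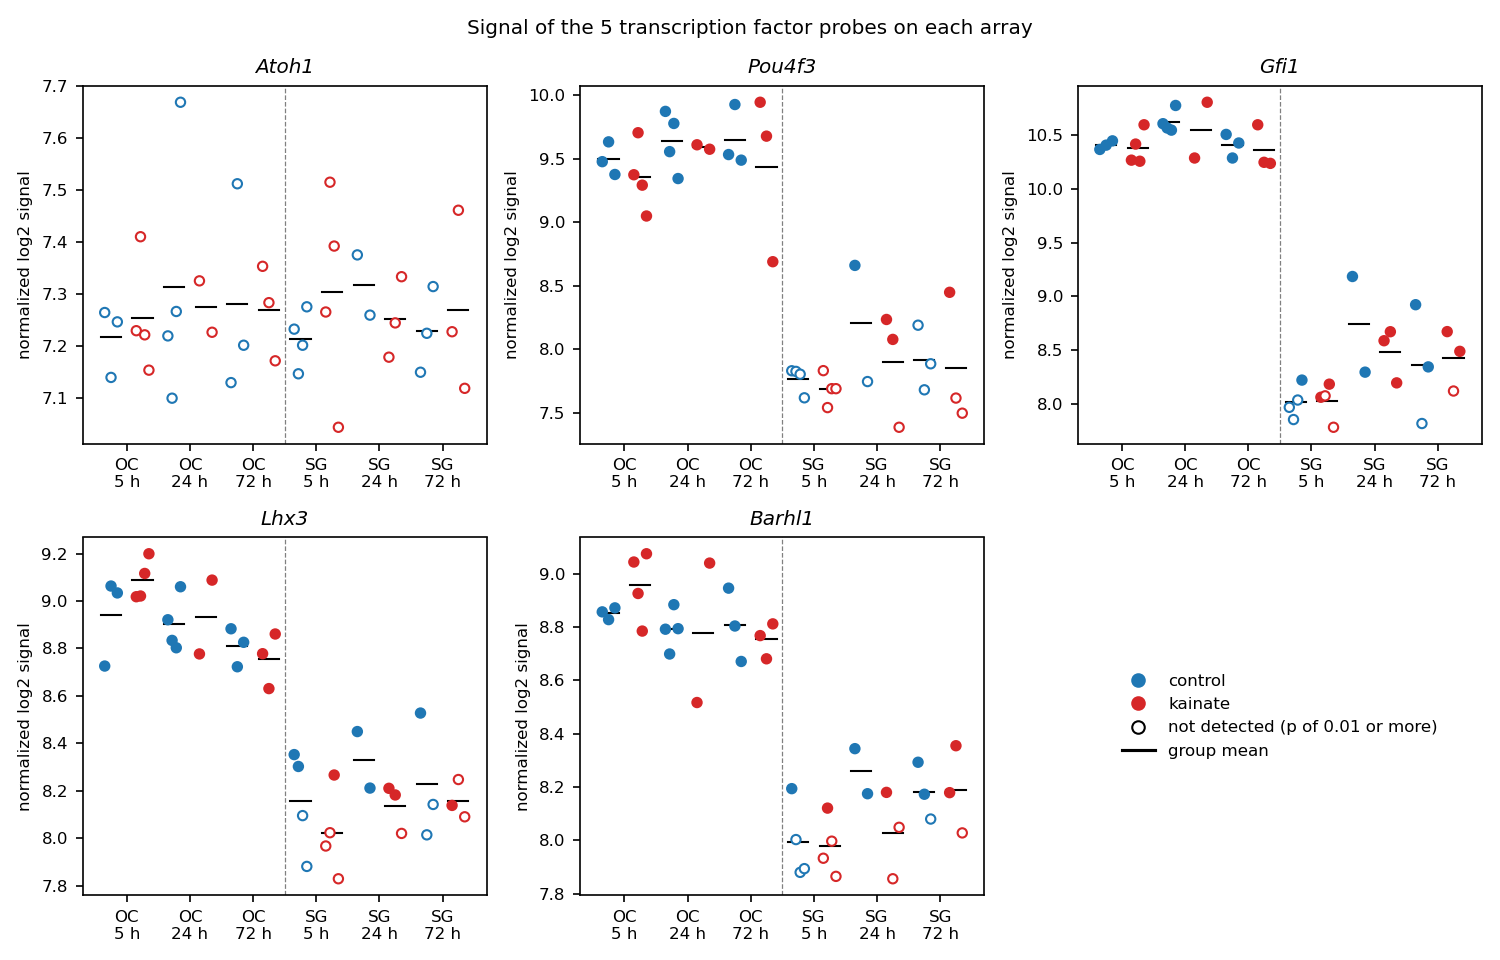
Normalized log2 signal (vertical axis, scaled separately for each gene) of the 5 probes on each of the 38 arrays, by tissue and time, with control in blue and kainate in red. Open circles are arrays on which the probe was not detected and bars are group means. All 19 OC arrays lie above all 19 SG arrays for Pou4f3, Gfi1, Lhx3 and Barhl1, while Atoh1 is detected on none of the arrays.

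Gfi1 showed the largest step. Its signal on OC arrays lay between 10.24 and 10.81 with a median of 10.43, and on SG arrays between 7.78 and 9.19 with a median of 8.19. In control explants the difference of SG minus OC was -2.11 on the log2 scale (SE 0.12, 95% confidence interval -2.35 to -1.87, limma adjusted p = 2.42e-15), which is 4.32-fold lower in SG. The 2 fractions did not overlap on any array.

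Pou4f3 lay between 8.69 and 9.94 on OC arrays (median 9.55) and between 7.38 and 8.66 on SG arrays (median 7.80). The 2 ranges came within a narrow distance of each other, at an OC array of 72 h after kainate and an SG control array of 24 h, but did not overlap. The difference of the measured signals in control explants was -1.63 (SE 0.15, limma adjusted p = 2.04e-10), but only 1 of the 9 SG control arrays detected Pou4f3, so the SG side of this and of later averages lies mostly at background. In 3 of the 6 combinations of time and treatment no SG array detected Pou4f3, so only a bound can be given there, with the SG level set at each array's detection floor. Pou4f3 was at least 2.62-fold higher in OC in controls at 5 h, at least 2.74-fold in controls at 72 h, and at least 2.44-fold after kainate at 5 h.

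Lhx3 and Barhl1 showed a smaller step. Lhx3 lay between 8.63 and 9.20 on OC arrays (median 8.88) and between 7.83 and 8.53 on SG arrays (median 8.14), with a difference in control explants of -0.65 (SE 0.07, limma adjusted p = 2.49e-08). Barhl1 lay between 8.52 and 9.07 on OC arrays (median 8.81) and between 7.86 and 8.36 on SG arrays (median 8.08), with a difference of -0.67 (SE 0.07, limma adjusted p = 8.84e-10). Neither gene's ranges overlapped between the fractions, although the gap between them was small.

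Thus 4 of the 5 factors were lower in SG in control explants, where 12% of all 25697 probes were. The same 4 were lower after kainate, where 12.1% of probes were, with differences of -2.12 for Gfi1, -1.65 for Pou4f3, -0.82 for Lhx3 and -0.76 for Barhl1, while Atoh1 differed by 0.01 (limma adjusted p = 0.959). No overlap between all 19 SG and all 19 OC arrays was seen for 303 probes lower in SG, 1.18% of the total. In the 16 explants with both fractions measured, SG was below OC in 16 of 16 for each of the 4 factors and in 7 of 16 for Atoh1. The median difference within an explant was -2.24 for Gfi1, -1.60 for Pou4f3, -0.73 for Lhx3 and -0.75 for Barhl1. The step was also present within each of the 5 batches that the study's sample clustering marks, from -1.85 to -2.39 for Gfi1, -1.33 to -2.13 for Pou4f3, -0.55 to -1.02 for Lhx3 and -0.55 to -0.91 for Barhl1. In bulk RNA, fewer hair cells and less of a transcript per hair cell cannot be told apart. With background correction by neqc, the control differences grew to -3.00 for Gfi1, -2.79 for Pou4f3, -1.15 for Lhx3 and -1.24 for Barhl1, so the folds given here depend on how background is treated.

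**Figure D2:**
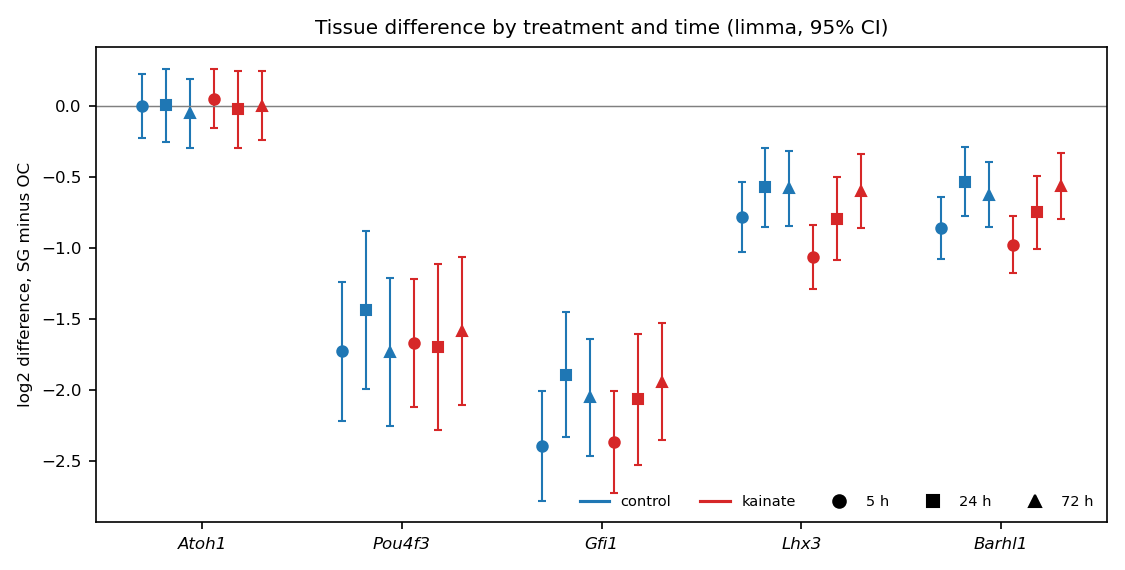
Difference in log2 signal between SG and OC (vertical axis) for each gene in each of the 6 combinations of treatment (colour) and time (marker), with the 95% confidence interval from limma. The 4 detected factors lie below 0 in all 6 combinations, with Gfi1 lowest and Atoh1 around 0. For Pou4f3 the points at 5 h and for controls at 72 h are differences of measured signals from SG arrays that did not detect it.

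At each time and treatment the 4 factors were lower in SG, with limma adjusted p-values from 4.05e-11 to 0.00518 in controls and from 7.51e-12 to 0.00123 after kainate. The share of all probes lower in SG in these 6 comparisons was 7.24%, 3.99% and 5.85% in controls at 5, 24 and 72 h, and 7.8%, 4.25% and 5.56% after kainate. For Gfi1 the difference was -2.39 in controls at 5 h (SE 0.19), -1.89 at 24 h (SE 0.21) and -2.05 at 72 h (SE 0.20). For Pou4f3 in controls it was -1.43 at 24 h, where 1 of 2 SG arrays detected it, and at 5 and 72 h only the bounds given above hold. For Lhx3 it ran from -1.07 after kainate at 5 h to -0.57 in controls at 24 h, and for Barhl1 from -0.98 after kainate at 5 h to -0.53 in controls at 24 h. When the 12 groups were ordered by mean signal, the 6 OC groups stood above the 6 SG groups for all 4 factors, and the step between the lowest OC and the highest SG group was the sole neighbouring pair without overlapping ranges. Among the OC groups, and among the SG groups, neighbours in the order did not differ beyond the spread of their arrays.

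The genes that hair cells use for their bundles and synapses showed the same step. Of 45 such genes listed, 32 were measured. In control explants 25 of these were lower in SG, 2 were higher and 5 did not pass the test, where 2105 of all 16593 genes were lower and 2133 higher. The median difference was -0.91 against 0.00 over all genes. The lowest p-values belonged to Otof, the calcium sensor of synaptic vesicle release in hair cells (-2.96, limma adjusted p = 3.09e-16), Grxcr2, a stereocilia protein (-2.07), Cabp2, a calcium-binding protein of the hair cell synapse (-2.24), and Chrna9, a subunit of the acetylcholine receptor of hair cells (-1.73). The 2 that were higher in SG were Cdh23, a cadherin of the tip link (0.63), and Atp2b2, a calcium pump also used by neurons (0.50). The defining marker Myo7a was detected on 19 of 19 OC arrays and on 7 of 19 SG arrays, and differed by -1.67. The OC label was thus borne out by hair cell markers, and the SG fraction was not free of them.

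For the lists that follow, 2105 of all 16593 genes were lower in SG in control explants and 2133 higher. Other transcription factors of the sensory epithelium were lower in SG in 9 of 19 measured cases and higher in 0, with a median of -0.10. They included Isl1 (-1.31), a LIM homeodomain factor of hair cells, supporting cells and sensory neurons, Gata3 (-1.29), required for the cochlear sensory region, Eya1 (-0.74), a co-activator needed for inner ear formation, and Lmo4 (-0.36), a LIM-only adaptor protein. Of the 19 genes of Notch signalling and the Id family, 13 were lower in SG and 0 higher, with a median of -0.40. They were led by Hey1 (-0.97), a transcriptional repressor downstream of Notch, Mfng (-1.82) and Lfng, glycosyltransferases that modify Notch receptors, and Hes5 (-1.58), a Notch target of supporting cells. Lfng was detected on 19 of 19 OC arrays and on no SG array. Supporting cell and epithelium markers were lower in SG in 11 of 16 cases and higher in 2. That list shares 5 genes with the 2 before it, and its differences ran from -1.69 to 2.01. The number higher was 1 without SG control array 2 of 24 h, and also without the 2 OC arrays numbered 4 of 24 h.

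Of 15 measured members of the same families as the 5 factors, 0 were lower in SG and 2 were higher, where 2105 of all 16593 genes were lower and 2133 higher, so the number higher is near that over all genes. The 2 were Pou4f1 (0.64, limma adjusted p = 2.32e-05), a relative of Pou4f3 in sensory neurons that is also one of the neuron markers, and Lhx1 (0.40, limma adjusted p = 0.000161), a LIM homeodomain factor. Pou4f1 was detected on 8 of 19 SG arrays and 0 of 19 OC arrays, and Lhx1 on 2 and 0, so both lay near background and their values are differences of measured signals. Every other relative was detected on none of the 38 arrays. The mean signal of the list was 7.41 over OC arrays and 7.49 over SG arrays, below the lowest detection floor of 7.95. Whether these relatives share the step of the factors thus cannot be read from these arrays. Among 10 measured protein partners of the 5 factors, 1 was lower in SG, Isl1, which can bind Ldb1 together with Lhx3 in motor neurons, and 3 were higher. The 3 were Tcf4 (0.29), a helix-loop-helix partner of Atoh1-type factors, Rcor1 (0.33) and Hdac2 (0.18), parts of repressor complexes that Gfi1 recruits in blood cells. Without the SG control array 2 of 24 h, 1 partner was higher in place of 3. Neuron markers were higher in SG in 14 of 21 cases with a median of 0.64, and lower in 3. Their differences ran from -1.6 to 1.61.

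Within the SG fraction the level of Gfi1 was not constant. It was detected on 1 of 4 control arrays at 5 h, 2 of 2 at 24 h and 2 of 3 at 72 h, and after kainate on 2 of 4, 3 of 3 and 2 of 3. The control values at 5 h were 7.97, 7.85, 8.03 and 8.22. Those at 24 h were 9.19 and 8.29, and those at 72 h were 8.92, 7.81 and 8.34. After kainate the arrays of 5 h gave 8.06, 8.07, 8.18 and 7.78, those of 24 h 8.59, 8.67 and 8.19, and those of 72 h 8.67, 8.12 and 8.49. At 24 h, 4 of the 5 arrays lay above all 8 arrays of 5 h, and the arrays of 72 h overlapped with both. The change from 5 to 24 h was 0.72 in controls (SE 0.21, limma adjusted p = 0.0804) and 0.46 after kainate (SE 0.19, limma adjusted p = 0.398), and neither passed the test. In these comparisons 1.95% and 0.514% of probes did. From 5 to 72 h it was 0.34 in controls (limma adjusted p = 0.268) and 0.40 after kainate (limma adjusted p = 0.179), where 15.4% and 14.6% of probes passed. Without control array 2 of 24 h the change in controls was 0.28 (limma adjusted p = 0.895).

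The Gfi1 signal on SG arrays moved with the mean of the 32 hair cell genes, the only list for which this relation was computed. That mean lay between 8.32 and 8.52 in SG controls at 5 h, was 8.87 and 8.51 on the 2 control arrays of 24 h, and lay between 8.36 and 8.68 in controls at 72 h. On OC arrays it lay between 9.36 and 9.83, without overlap. Over the 19 SG arrays the Pearson correlation of Gfi1 with it was 0.949 (permutation p = 1e-05, the smallest that 100000 permutations can give, Spearman rho 0.932). Adjusted over the 10 relations computed, the permutation p was 0.0001. Without the 2 arrays farthest from the median of the mean, SG control array 2 of 24 h and control array 2 of 5 h, r was 0.918. The deviations from the group means gave r = 0.922 and those from the batch means r = 0.938. Each batch holds 3 to 5 arrays of a tissue, fewer than the 6 that a correlation within it would need.

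Pou4f3 followed the same mean less closely, with r = 0.708 over 19 SG arrays (permutation p = 0.00067, adjusted 0.00335), a rho of 0.481 (permutation p = 0.038), and r = 0.601 without the 2 farthest arrays. Its detected SG arrays were control array 2 of 24 h (8.66), kainate arrays 1 and 3 of 24 h (8.23 and 8.08) and kainate array 1 of 72 h (8.45). On these 4 arrays the hair cell mean was 8.87, 8.67, 8.61 and 8.69, the upper end of its range in SG except for control array 2 of 72 h, at 8.68, where Pou4f3 was 8.19 and not detected. For Lhx3 (r = 0.492) and Barhl1 (r = 0.428) the relation did not pass the permutation test after adjustment (0.106 and 0.167), and Atoh1 showed none (r = -0.01). Over the 19 OC arrays r lay between -0.37 for Lhx3 and 0.20 for Pou4f3, with adjusted permutation p-values of 0.232 or more. The deviations from the group means, which leave out the change with time, gave 0.609 for Gfi1, 0.514 for Barhl1, 0.396 for Lhx3 and 0.19 for Pou4f3 in OC. Those from the batch means, which keep it, gave 0.107, -0.000747, -0.519 and 0.313 in the same order. In SG the deviations from group and batch means gave 0.673 and 0.602 for Pou4f3, 0.366 and 0.523 for Lhx3, and 0.09 and 0.682 for Barhl1.

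**Figure D3:**
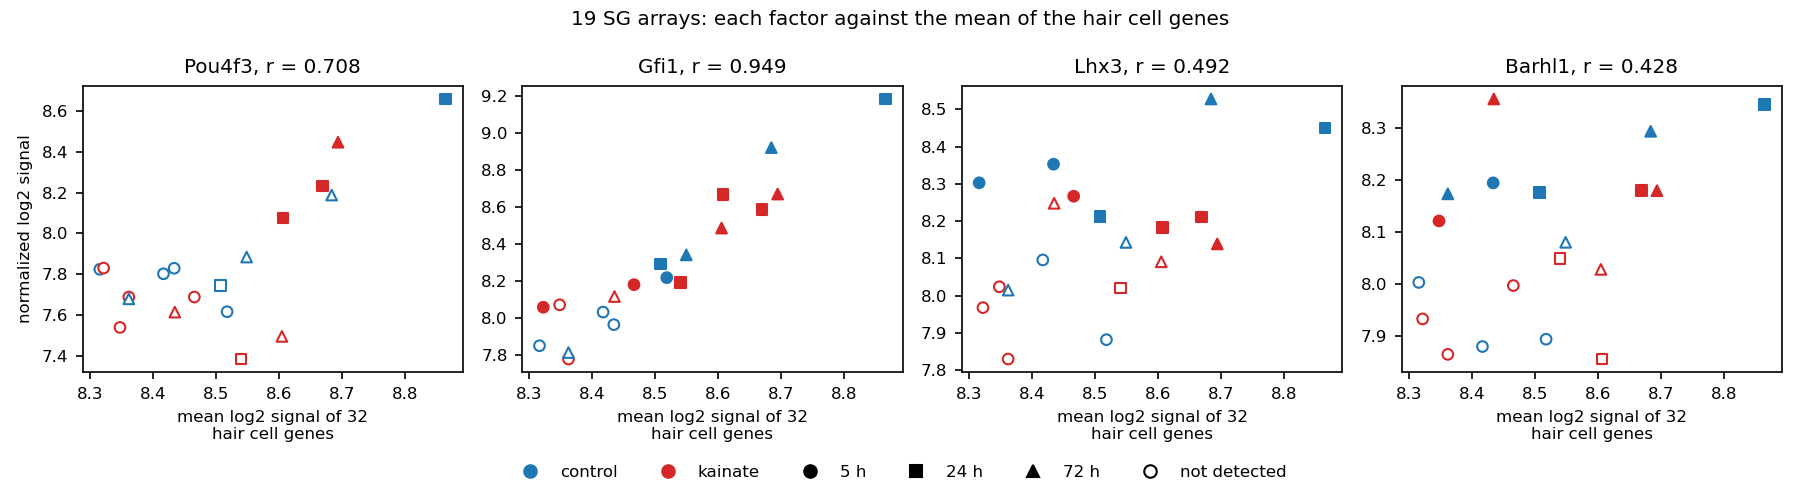
Log2 signal of Pou4f3, Gfi1, Lhx3 and Barhl1 (vertical axes) on the 19 SG arrays against the mean log2 signal of 32 hair cell genes on the same array (horizontal axis), with control in blue, kainate in red, time by marker and open markers for arrays on which the factor was not detected. Gfi1 rises almost in a line with the hair cell mean (r = 0.949), while Barhl1 scatters (r = 0.428).

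Other cell type markers differed between the same SG arrays. The mean of the supporting cell markers lay between 10.69 and 11.40 on SG arrays. It was highest, 11.40, on control array 2 of 24 h, where the mean of 18 leukocyte markers was lowest, 7.98 against up to 9.67. Gfi1 was also highest on that array (9.19). On kainate array 4 of 5 h both the supporting cell mean and Gfi1 (7.78) were lowest. Whether the relation of Gfi1 to the hair cell mean is particular to hair cell genes was therefore not tested. The mean of the 21 neuron markers in SG controls lay between 9.65 and 9.91 on the 4 arrays of 5 h and between 8.46 and 8.58 on the 3 arrays of 72 h. The part of these markers, or of where the explants were cut, in the Gfi1 and Pou4f3 signal of SG was not tested.

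In OC, none of the 4 factors passed the test for a change with time in culture, while some structural genes of hair cells rose. From 5 to 72 h the control difference was 0.15 for Pou4f3 (95% confidence interval -0.37 to 0.68), -0.00 for Gfi1 (-0.41 to 0.41), -0.13 for Lhx3 (-0.39 to 0.13) and -0.05 for Barhl1 (-0.28 to 0.18). By limma 0 of 5 factors passed, and 0 had an unadjusted p under 0.05, where 3.7% of all probes passed and 14% had such a p. After kainate 0 of 5 passed and 1 had an unadjusted p under 0.05, with 4.69% of probes passing and 15.3% at such a p.

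That factor was Lhx3. In OC after kainate its 5 h arrays gave 9.02, 9.02, 9.12 and 9.20, its 24 h arrays 8.78 and 9.09, and its 72 h arrays 8.78, 8.63 and 8.86. The difference was -0.33 (SE 0.12, 95% confidence interval -0.58 to -0.09, limma adjusted p = 0.122). Within batches it was -0.34 and -0.39 in the 2 batches that hold both times after kainate, each with 1 array per time. In controls the values were 8.73, 9.06 and 9.03 at 5 h and 8.88, 8.72 and 8.83 at 72 h. Within batches, again with 1 array per time, the control difference was -0.24 in one and 0.16 in the other. The difference between the 2 time changes, -0.20 (95% confidence interval -0.56 to 0.16), did not pass the test, which 0.136% of probes did.

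Barhl1 after kainate was 9.04, 8.93, 8.79 and 9.07 at 5 h and 8.77, 8.68 and 8.81 at 72 h, which overlapped at a single array. Its difference was -0.20 (SE 0.11, limma adjusted p = 0.371). The group means of Gfi1 in OC lay between 10.37 and 10.63. Pou4f3 spread widely in OC at 72 h after kainate, where the arrays gave 9.94, 9.68 and 8.69, and without the last of these, array 4, its change from 5 h was 0.46 in place of 0.08 (limma adjusted p = 0.391). That array and the lowest ones at 5 h after kainate (9.05) and at 24 h in controls (9.34) belong to the same batch, in which the OC mean of Pou4f3 was 9.03, against 9.41 to 9.74 in the other 4 batches.

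**Figure D4:**
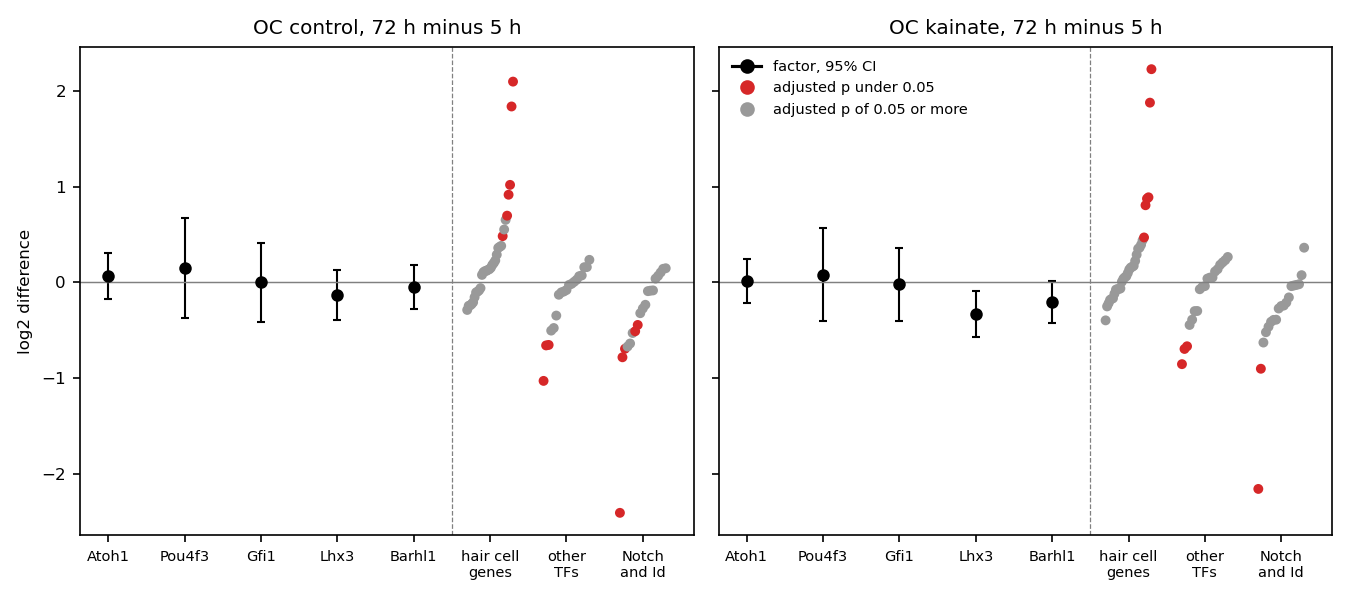
Change in log2 signal from 5 to 72 h in OC (vertical axis) in control and kainate explants. The 5 factors are shown in black with 95% confidence intervals, and single genes of 3 lists as points, in red where the limma adjusted p is under 0.05. Ocm (2.10 in controls) and Hes5 (-2.41 in controls) are the extremes of the lists, while the factors lie between -0.33 and 0.15.

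Among the 32 hair cell genes, 6 rose from 5 to 72 h in OC controls and 0 fell (median 0.15), and after kainate 6 rose and 0 fell (median 0.12), against medians of -0.01 over all genes in both. Of all 16593 genes, 400 rose in controls and 482 after kainate. Ocm, the calcium buffer oncomodulin of outer hair cells, rose by 2.10 in controls and 2.23 after kainate (limma adjusted p = 3.95e-08 and 2.35e-09). Tmc1, a part of the mechanotransduction channel of mature hair cells, rose by 1.84 and 1.88. Cabp2 rose by 1.02 and 0.88, and Grxcr2 by 0.92 and 0.89. The mean of the list lay between 9.36 and 9.45 on OC control arrays of 5 h and between 9.64 and 9.74 at 72 h.

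Other transcription factors of the sensory epithelium fell or did not pass. Of 19 measured, 3 fell in controls and 3 after kainate, with 0 rising, where 353 of all 16593 genes fell in controls and 448 after kainate. Insm1, a zinc finger factor of early outer hair cells, fell by 1.03 in controls and by 0.86 after kainate, and Hes6, a helix-loop-helix factor of developing hair cells, fell by 0.66 and 0.67. The third was Eya1 in controls (-0.65) and Prox1, a homeodomain factor of supporting cells, after kainate (-0.70). Of the Notch and Id genes 5 fell in controls and 2 after kainate, and 0 rose. Hes5 fell by 2.41 and 2.16 (limma adjusted p = 3.99e-07 and 9.7e-07), Id3, an inhibitor of helix-loop-helix factors, by 0.78 in controls, and Heyl, a Notch target, by 0.90 after kainate. The leukocyte markers had a median of 0.27 in controls and 0.35 after kainate in the same comparison, with 0 of 18 and 1 of 18 passing.

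No difference between kainate and control explants passed the test for any of the 5 factors. At the threshold of an unadjusted p under 0.005 in limma, 0 of 5 passed in each of the 6 comparisons of kainate with control, and 0 had an unadjusted p under 0.05. The share of all probes that passed was 0.136%, 0.272% and 0.257% in OC at 5, 24 and 72 h, and 0.389%, 1.1% and 0.179% in SG. A p that misses the threshold does not show that a gene was unaffected, and the intervals give what can be stated.

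In OC at 5 h after kainate the difference was -0.02 for Gfi1 (95% confidence interval -0.41 to 0.36) and -0.14 for Pou4f3 (-0.63 to 0.35), the least certain of the 4. It was 0.15 for Lhx3 (-0.10 to 0.39) and 0.10 for Barhl1 (-0.11 to 0.32). At 24 h the differences in OC lay between -0.08 for Gfi1 and 0.03 for Lhx3, and at 72 h between -0.21 for Pou4f3 and -0.04 for Gfi1, where Pou4f3 was 0.16 without the low kainate array 4. Averaged over the 3 times, the intervals in OC were -0.29 to 0.19 for Gfi1, -0.43 to 0.17 for Pou4f3, -0.11 to 0.19 for Lhx3 and -0.12 to 0.15 for Barhl1. A change of the OC signal of Lhx3 or Barhl1, averaged over the 3 times, by more than 0.19 in either direction thus lies outside these intervals. Intervals at a single time are wider, and that of Lhx3 at 5 h reaches 0.39. All hold for signals from which no background was subtracted.

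**Figure D5:**
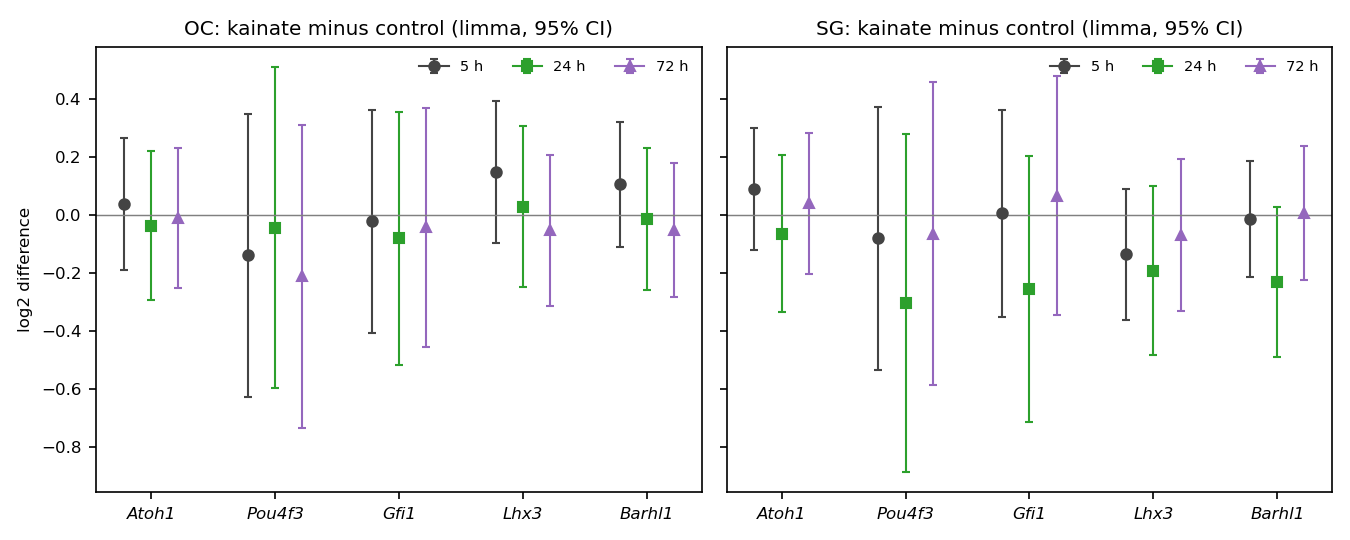
Difference in log2 signal between kainate and control explants (vertical axis) for each factor in OC (left) and SG (right) at 5, 24 and 72 h, with the 95% confidence interval from limma. All intervals include 0, and the lowest values are those of Pou4f3 (-0.30), Gfi1 (-0.26) and Barhl1 (-0.23) in SG at 24 h. No array detected Atoh1, and no SG array of 5 h detected Pou4f3.

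In SG the lowest values stood at 24 h, with -0.30 for Pou4f3 (95% confidence interval -0.89 to 0.28), -0.26 for Gfi1 (-0.72 to 0.20), -0.23 for Barhl1 (-0.49 to 0.03) and -0.19 for Lhx3 (-0.48 to 0.10). They rested on 2 control arrays that differed from each other. Control array 2 had the highest Pou4f3 (8.66) and Gfi1 (9.19) of all SG arrays, and control array 3 had 7.74 and 8.29. Without array 2 the differences were 0.15 for Pou4f3 and 0.19 for Gfi1, and without array 3 they were -0.76 and -0.70. In the same comparison the median of the 32 hair cell genes was -0.11 and that of the 18 leukocyte markers 0.55, and the part of either in the values of the 4 factors was not tested. At 5 and 72 h in SG the differences of the 4 factors lay between -0.14 for Lhx3 at 5 h and 0.07 for Gfi1 at 72 h. Much of the SG signal behind them lay at background. At 5 h Pou4f3 was detected on 0 of 4 control and 0 of 4 kainate arrays, Barhl1 on 1 and 1, Lhx3 on 2 and 1, and Gfi1 on 1 and 2. At 72 h Pou4f3 was detected on 0 of 3 control and 1 of 3 kainate arrays. Small differences there thus do not show that a factor was unchanged. The kainate effect in SG minus that in OC passed for 0 of 5 factors at each time (limma, 0 at an unadjusted p under 0.05), against 0.198%, 0.37% and 0.163% of probes at 5, 24 and 72 h, with values at 24 h from -0.26 for Pou4f3 to -0.17 for Gfi1.

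Of the 32 hair cell genes 0 passed in any of the 6 comparisons at an unadjusted p under 0.005. Among the relatives of the factors 1 did, Neurod1, a helix-loop-helix factor of auditory neurons, which rose by 0.31 in OC at 24 h after kainate (limma adjusted p = 1). It was detected on none of the 38 arrays. Among the other factors of the epithelium 1 did, Tbx2, a T-box factor of inner hair cells, which fell by 0.44 in SG at 24 h after kainate (limma adjusted p = 0.416).

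The genes whose pattern over all 38 arrays was most like that of each factor were sought among 11485 probes detected on at least 10 arrays. The correlations are descriptions, shaped mainly by the step between the 2 fractions. Gfi1 was followed by Espnl (r = 0.99), an actin-binding protein of stereocilia, Chrna10 (0.987), a partner of Chrna9, Pjvk (0.984), the deafness gene pejvakin, Fscn2 (0.983), an actin bundler of stereocilia, and Fgf8 (0.981), a growth factor of inner hair cells. Pou4f3 was followed by Atp10d (0.961), Gfi1 (0.955), Pole (0.952), Otof (0.952) and Espnl (0.951). Lhx3 was closest to Zdhhc13 (0.954), Bdnf (0.948), a neurotrophin, Barhl1 (0.945), Chrna9 (0.944) and Lgr5 (0.942), a Wnt pathway receptor of supporting cells. Barhl1 was closest to Zdhhc13 (0.954), 2 probes of Rnf182 (0.953 and 0.951), Lgr5 (0.952) and Raver2 (0.951). For Atoh1 the highest was Siah1b at 0.609.

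Within the 19 OC arrays these likenesses were largely lost. Pou4f3 and Gfi1 had r = 0.179 there, Pou4f3 and Lhx3 -0.41, and Lhx3 and Barhl1 0.599, each over 19 arrays. The most like probes within OC were Dpyd for Pou4f3 (0.886), Ccdc65 for Gfi1 (0.833), Smim15 for Lhx3 (0.907) and Zmat3 for Barhl1 (0.812), among 10565 compared. None of these 4 is among the 5 most like over all arrays.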

How the data were processed

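RNA of dissected SG and OC fractions was hybridised to MouseRef-8 bead arrays. The authors deposited raw probe intensity with a detection p-value per probe and array, and a table of log2 values that they had quantile normalized. Recomputing log2 of the raw intensity with quantile normalization gave the deposited log2 values within 4.993e-09, so no background had been subtracted. The platform annotation gave 1 symbol for 23978 of 25697 probes and none for 1719. A gene with several probes was read by the probe of highest mean signal. A limma model (limma 3.58.1 in R 4.3.3, lmFit and eBayes) with a mean for each of the 12 groups was fitted to all probes and arrays, with 26 residual degrees of freedom, and p-values were adjusted by Benjamini-Hochberg over all probes. Calls used an adjusted p under 0.05, and for kainate effects the study's threshold of an unadjusted p under 0.005. The model was tested on simulated data with known changes. The simulated errors were independent between arrays, without batches or pairs, so the test does not cover such dependence. The submitters' processing notes name limma, and the version they used was not given in the labels or methods.

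The members, the gene lists and the comparisons were chosen with earlier results of these data known. Genes named from a list are the up to 4 of smallest p in a comparison. Further ones were named in some cases where a count is 5 or fewer or, as for Myo7a, after their values were seen. Likeness was ranked by Pearson correlation. Batches were read from the colour bar of the heat map in the study, which is not part of the sample labels, and arrays of a group came from separate explants. SG and OC arrays with the same time, treatment and number deviated together in 16 of 16 pairs (correlations 0.1645 to 0.5753). Alternatives covered neqc, median scaling, filtering, batch, and blocks of these pairs and of replicate numbers. They also covered array weights, fits of 1 tissue, the series matrix values and each array left out.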

Additional observations from a re-analysis of the deposited data

Results flagged for a closer look

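Pou4f3 had an outlying array in the SG control group of 5 h. The lowest of its 4 arrays stood at 7.62 and the next at 7.80, and this gap was 0.873 of the range of the group. None of the 4 arrays detected Pou4f3, so the gap lies below the detection floor. Of 40 gene and group combinations tested this was the only one found, and chance gives about 1 in 20.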

How the results depend on the processing

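The counts of factors past the threshold were the same under all alternatives tried, 675 of 675 values over 14 results, and none of the 384 called differences changed sign or lost its call. Only the tissue differences in controls and after kainate had a count above 0, and for the other results a count of 0 stayed 0. The called differences are those of the same 4 factors in the tissue comparisons, repeated over settings that mostly left out single arrays. Among 2947 differences that were not called, 141 had the other sign.

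Leaving out single arrays gave SG minus OC differences in controls from -2.26 to -1.96 for Gfi1, -1.78 to -1.48 for Pou4f3, -0.70 to -0.61 for Lhx3 and -0.70 to -0.64 for Barhl1. With time and replicate number as a random block (replicate block, correlation 0.14) they were -2.11 for Gfi1, -1.63 for Pou4f3, -0.64 for Lhx3 and -0.66 for Barhl1, and the count stayed at 4. With the pairs of SG and OC arrays of the same time, treatment and number as a fixed block they were -2.15, -1.64, -0.60 and -0.68. Kainate and control arrays of the same number correlated above 0.1 in 11 of 15 pairs, among them all 4 SG and all 3 OC pairs of 5 h. The labels do not say that a number marks a shared litter or day, and the block changed no call of a kainate effect. After kainate, neqc gave -2.99 for Gfi1, -2.91 for Pou4f3, -1.48 for Lhx3 and -1.44 for Barhl1.

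Some alternatives were chosen after seeing the data. Without the OC arrays numbered 4 at 24 h, 5 hair cell genes in place of 6 rose from 5 to 72 h after kainate in OC. Without SG control array 2 of 24 h, 24 in place of 25 hair cell genes were lower in SG. The low number of arrays, 2 in some groups, and signals close to background limit what can be detected, most of all for Atoh1 and for all factors in SG.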

Other observations

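Markers of other cell types were compared between the fractions of control explants, where 2133 of all 16593 genes were higher in SG and 2105 lower. Fibroblast and mesenchyme markers were higher in SG in 5 of 10 cases and lower in 1, led by Col3a1, a fibrillar collagen (2.10, limma adjusted p = 1.88e-08). Schwann and satellite glia markers were higher in 2 of 6, Egr2 (1.18) and Pmp22 (1.24), both known from myelinating Schwann cells. The other 4 glia markers did not pass the test, and the median of that list was -0.11. Macrophage and leukocyte markers were higher in SG in 5 of 18 cases, among them Cd53 (0.93) and Tyrobp (0.60), and in 8 of 18 without SG control array 2 of 24 h. Of the endothelial markers 1 of 7, Tek (0.36), was higher in SG, a share near that over all genes. By limma 0 of 7 cell cycle genes passed, with a median of -0.10, and 2 had an unadjusted p under 0.05, as did 31.4% of all probes. Without SG control array 2 of 24 h, 1 of the 7 was lower in SG.

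Of the neuron markers, 5 of 21 fell in SG at 5 h after kainate at an unadjusted p under 0.005 (limma), with a median of -0.31 over the list. At that threshold 50 of all 16593 genes fell. The 5 markers were Prph (-0.60), Nefh (-0.47), Elavl4 (-0.54), Syn1 (-0.51) and Dcx (-0.45). They encode 2 neurofilament-type proteins, an RNA-binding protein of neurons, a synaptic vesicle protein and a microtubule protein. The study had already reported changes of Elavl4 and Syn1 after kainate in these data. At 24 h 2 rose, Thy1 (0.65) and Elavl4 (0.62), with a median of 0.19, where 103 of all 16593 genes rose. In these comparisons 0 of the 5 hair cell factors passed.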
